A study of Homo sapiens with 8 samples.

Results

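The respiratory chain and the ATP synthase are built from subunits encoded in the nucleus, apart from a small set encoded by mitochondrial DNA. The genes described here are the nuclear ones whose symbols name a subunit of complex I (NDUFA, NDUFB, NDUFC, NDUFS and NDUFV followed by a digit), complex II (SDH), complex III (UQCR and CYC1), complex IV (COX4 to COX8 with a subunit letter) or the ATP synthase (ATP5). Pseudogenes and the NDUFAF assembly factors were not taken. The rule covered 81 genes of the RefSeq gene table, and 75 of them had a probe set of their own, out of 17958 genes measured. They comprised 33 genes of complex I, 3 of complex II, 8 of complex III, 17 of complex IV and 14 of the ATP synthase. Of the other 6 genes, NDUFA1, NDUFS5 and ATP5ME shared their probe sets with other genes, and 3 had no probe set of their own, so none of the 6 was analysed here. Neither were the 13 mitochondrially encoded subunits. Each gene was read from 1 probe set, the one with the highest mean over the arrays where a gene had several.

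Human lymphoma cells of 3 groups were measured on 8 single-sample Affymetrix gene arrays, with total RNA from cells grown in RPMI medium with serum. The first group held 3 arrays of KMH2 cells, a Hodgkin lymphoma line, after 24 h of glucosamine, an amino sugar that enters the hexosamine pathway. The second held 2 arrays of Ramos, a Burkitt lymphoma B-cell line, and the third held 3 arrays of KMH2 control cells without glucosamine. The series' design text sets KMH2 after 24 h of glucosamine against KMH2 before it, and the labels give the controls no time. If the controls were taken before, effects of glucosamine and of 24 h in culture cannot be told apart here. The sources used here give no dose. The KMH2 arrays came from biological replicates, whereas the nature of the Ramos replicates was not given. Sample labels call both Ramos arrays control, but the series' design text places 1 of them after glucosamine, so Ramos was defined only as a cell line, with its treatment left unassigned. Each group is 1 established line, and no second Hodgkin or Burkitt line was measured. The values are log2 signals, on which a difference of 1 is a doubling, and signals of different probe sets were not compared with each other.

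Electrons from NADH enter the chain at complex I and those from succinate at complex II. Coenzyme Q carries them to complex III and cytochrome c to complex IV, which reduces oxygen. Complexes I, III and IV pump protons across the inner membrane, and the ATP synthase uses the gradient to make ATP. Complexes I, III and IV and the ATP synthase combine catalytic core subunits with accessory subunits that are needed for assembly or stability. Lymphoma lines in culture usually combine glycolysis with respiration.

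The arrays were on a common scale, with medians of 5.62 to 5.68. B-cell genes checked the lines: MS4A1, which encodes CD20, read 11.04 and 10.83 on the Ramos arrays and no more than 3.87 on any KMH2 array. TNFRSF8, which encodes the Hodgkin marker CD30, read 6.10 and 5.63 in Ramos, and it lay between 7.95 and 8.08 after glucosamine and between 8.65 and 8.85 in KMH2 control. Of the other Hodgkin genes checked, GATA3 read 5.92 and 5.62 in Ramos, against 8.65 to 8.80 in KMH2 control. CCL17 read 6.41 and 6.47 against 7.11 to 7.20. IL13 did not tell the lines apart, at 5.19 and 5.18 in Ramos and 4.78 to 5.20 in KMH2 control. The T-cell gene CD3D lay between 7.95 and 8.27 in KMH2 while CD3E did not exceed 4.37 there, and the myeloid gene CD14 lay between 6.10 and 6.47 after glucosamine, against 7.17 to 7.68 in control. Another myeloid gene, LYZ, did not exceed 3.95 on any KMH2 array and read 4.54 and 4.49 in Ramos. Whether these marker differences bear on the subunit genes was not tested. The median SD of a subunit gene between replicates was 0.0617 in KMH2 glucosamine, 0.121 in Ramos and 0.059 in KMH2 control.

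After 24 h of glucosamine, 21 of the 75 subunit genes had fallen and 5 had risen in KMH2 cells (limma, adjusted p under 0.05 over all probe sets with 1 symbol). Across all 19181 such probe sets, 13.9% were called lower and 11.9% higher, or 25.8% in either direction, against 28% and 6.67% of the subunit genes. Of the 75 genes, 68 lay at or above the median mean signal. Without the probe sets below that median, 27 of these 68 fell and 7 rose. That filter left 4765 probe sets called, from those at or above the median alone, against 4956 of all 19181. The share called was therefore much higher among probe sets this bright, and the shares over all are a low yardstick for them. That share was not split by direction. An excess of called subunit genes over the shares of all is not read as particular to them. The median difference of the 75 genes was -0.06, beside 0.01 for all probe sets. Most falls were in complex I, with 12 of 33 genes, and in the ATP synthase, with 6 of 14, while complexes II, III and IV had 1 fall each. The changes were small: NDUFA3 fell 1.54-fold, NDUFS4 rose 1.61-fold and COX7A2L rose 1.62-fold, no other gene reached 1.5-fold and none reached 2-fold. With 1 estimate of the spread shared over all 8 arrays, 8 of the falls (ATP5MC1, ATP5PD, NDUFA11, NDUFA3, NDUFV1, NDUFV2, NDUFV3 and SDHC) and 2 of the rises (COX7A2L and NDUFS4) passed. The count of rises was 2 without control replicate 1 or 2 or glucosamine replicate 2 or 3, and 3 without control replicate 3. In 31 genes all 3 glucosamine arrays lay below all 3 control arrays, and in 12 all lay above, where the same separation was found for 20.6% and 20.3% of all probe sets, or 40.9% together. An array on RNA from bulk cells does not tell apart fewer cells of a kind and less RNA per cell.

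**Figure D1:**
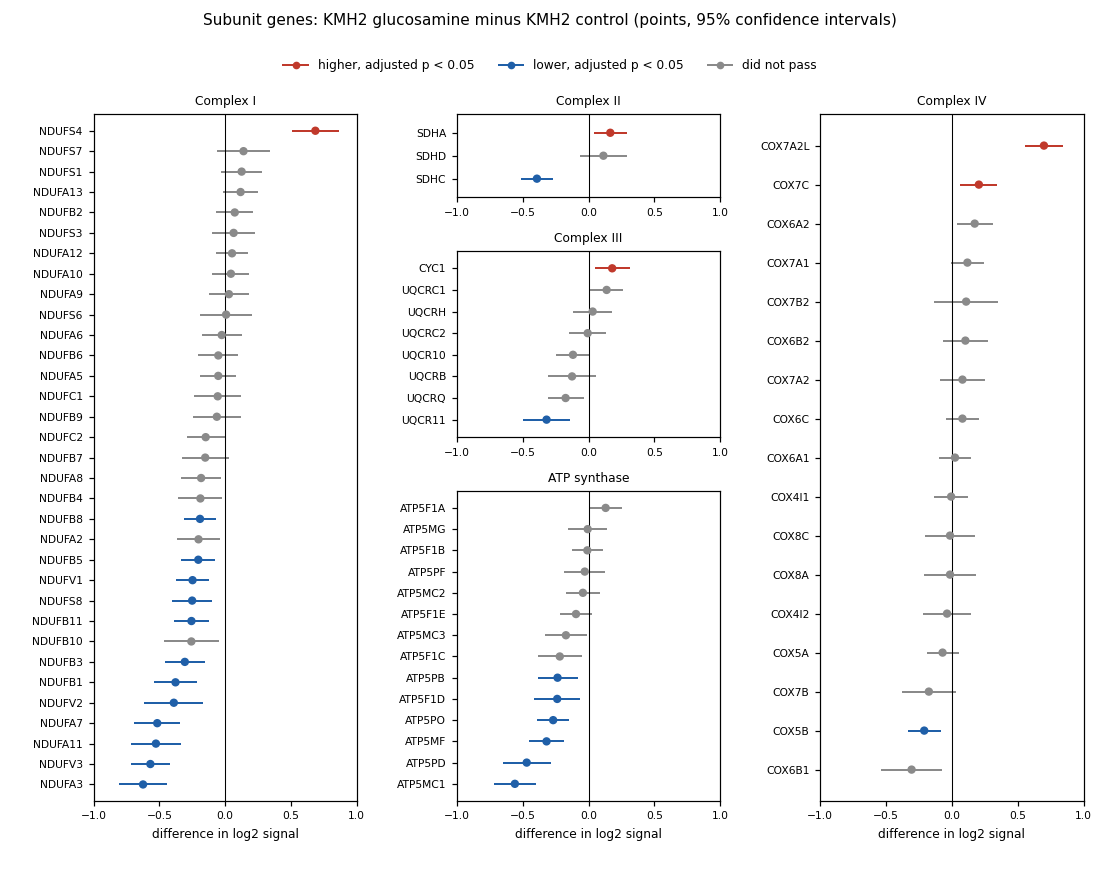
Difference in log2 signal, KMH2 glucosamine minus KMH2 control (horizontal axis), for the 75 subunit genes grouped by complex, 3 arrays each. Points are limma estimates and bars 95% confidence intervals. Red marks the 5 genes called higher, blue the 21 called lower and grey the 49 that did not pass, and the blue points gather in complex I and the ATP synthase.

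Promoter sequence is shown for the gene with the largest fall in complex I (NDUFA3) and in the ATP synthase (ATP5MC1), for both genes that rose most (NDUFS4 and COX7A2L), and for NDUFA8, which did not pass and holds a perfect core of nuclear respiratory factor 1 (NRF1), a transcription factor of respiratory genes. The sequences are from RefSeq on GRCh38.p14, read 5′ to 3′ on the gene's strand from 120 bases before the annotated start to 30 after it. Capitals mark letters that match a searched motif.
NDUFA3 (chr19:54102735-54102884, plus strand): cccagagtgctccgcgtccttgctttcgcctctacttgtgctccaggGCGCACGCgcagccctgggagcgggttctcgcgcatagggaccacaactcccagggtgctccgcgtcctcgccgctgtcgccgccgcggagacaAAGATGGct
ATP5MC1 (chr17:48892667-48892816, plus strand): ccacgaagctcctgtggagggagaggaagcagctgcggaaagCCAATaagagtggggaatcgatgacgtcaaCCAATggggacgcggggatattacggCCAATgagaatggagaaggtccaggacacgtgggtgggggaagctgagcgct
NDUFS4 (chr5:53560519-53560668, plus strand): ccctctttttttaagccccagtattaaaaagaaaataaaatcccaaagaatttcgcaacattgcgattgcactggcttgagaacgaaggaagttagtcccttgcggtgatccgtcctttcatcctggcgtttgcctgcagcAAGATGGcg
COX7A2L (chr2:42361188-42361337, minus strand): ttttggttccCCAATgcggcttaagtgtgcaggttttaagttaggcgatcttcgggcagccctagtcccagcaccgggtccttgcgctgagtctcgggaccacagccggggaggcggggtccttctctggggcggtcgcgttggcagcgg
NDUFA8 (chr9:122159750-122159899, minus strand): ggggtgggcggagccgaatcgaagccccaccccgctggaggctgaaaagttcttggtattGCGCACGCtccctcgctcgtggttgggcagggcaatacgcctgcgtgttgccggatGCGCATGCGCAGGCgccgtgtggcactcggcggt

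Motifs were searched on both strands of the 300 bases around the start, which were on hand for 62 of the 75 genes and for 27305 genes in all. The palindromic NRF1 core, seen around the start in the NDUFA8 sequence, was found in 4 of the 62 promoters (6.45%), those of NDUFA8, NDUFB4, ATP5F1C and SDHD, against 1.36% of all promoters. Its short form GCNTGCGC, which lies within the core, was found in 38.7% of the subunit promoters and in 12.5% of all. The ETS-family letters CCGGAAG were in 25.8%, against 10.7% of all, and the YY1 letters AAGATGG in 22.6%, against 6.06% of all. The CCAAT box was about as common in both, at 37.1% and 35.7%, and the ATF4 letters TGATGNAA were in 1.61%, against 3.67% of all. At least 1 of the short NRF1 form, the ETS letters and the YY1 letters stood in 62.9% of the subunit promoters, against 25.2% of all. By call, these were 9 of the 17 promoters of genes that fell (52.9%), 3 of 4 of genes that rose and 27 of 41 of genes that did not pass (65.9%). NDUFA3 carries a short NRF1 form and a YY1 match, NDUFS4 a YY1 match at the same distance from its start, and ATP5MC1 has 3 CCAAT boxes. These matches are letters in a window and do not show binding.

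Complex I had 12 falls and 1 rise among 33 genes, with a median difference of -0.15. NDUFA3, an accessory subunit of the membrane arm, read 9.21, 9.07 and 9.24 after glucosamine, against 9.71, 9.76 and 9.92 in control. All 3 glucosamine arrays were below the lowest control array, and the difference was -0.62 ± 0.07 (SE, n = 3 each, limma adjusted p = 0.000667). NDUFV3, an accessory subunit of the NADH-oxidising module, read 7.13, 7.09 and 7.11 after glucosamine, against 7.58, 7.70 and 7.76 in control. Its groups were likewise apart, by -0.57 ± 0.06 (adjusted p = 0.000409). NDUFA11, a membrane accessory subunit, read 7.63, 7.33 and 7.45 after glucosamine, against 8.05, 7.99 and 7.95 in control. The groups did not overlap, although the glucosamine arrays were more spread than the control arrays, and the difference was -0.53 ± 0.08 (adjusted p = 0.00196).

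The single rise in complex I was that of NDUFS4, an accessory subunit of the peripheral arm whose loss causes a mitochondrial encephalopathy, Leigh syndrome. It read 8.71, 8.66 and 8.64 after glucosamine, against 8.01, 7.84 and 8.11 in control. The lowest glucosamine array lay well above the highest control array, with a difference of 0.69 ± 0.07 (adjusted p = 0.000426). A second NDUFS4 probe set, which read between 4.20 and 4.41 in KMH2 glucosamine and between 4.26 and 4.33 in control, did not pass, with a difference of 0.04 (adjusted p = 0.769). The rise therefore rests on 1 of 2 probe sets, the other being in the dim range of the arrays.

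**Figure D2:**
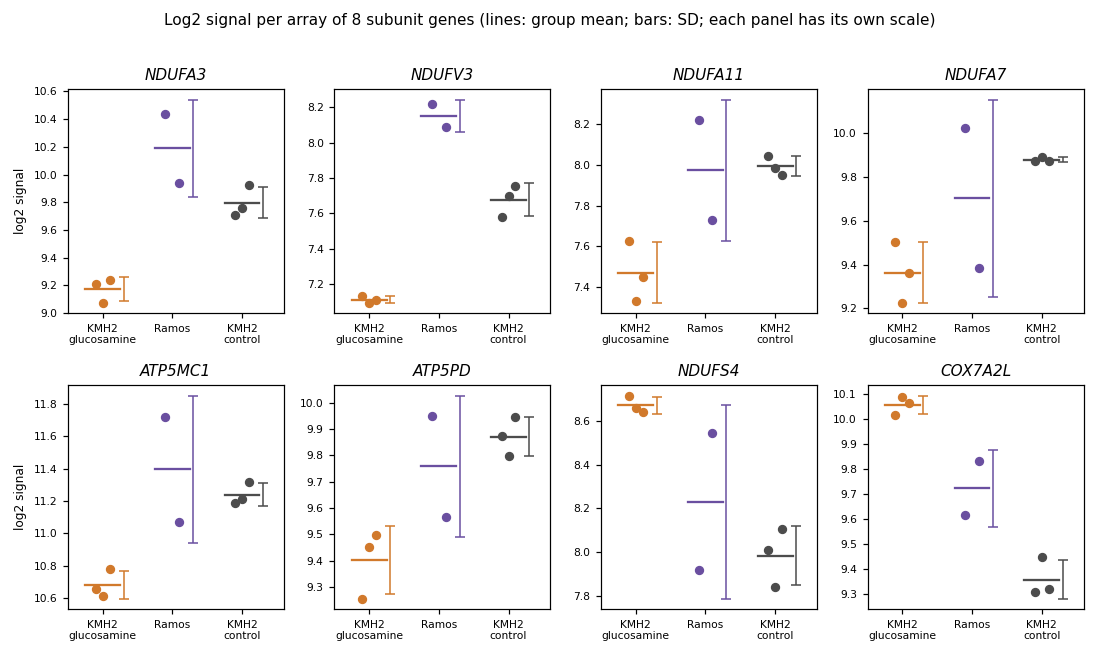
Log2 signal (vertical axis) on every array for 8 subunit genes, in the order KMH2 glucosamine, Ramos and KMH2 control, with the group mean as a line and its SD as a bar. In KMH2 the glucosamine arrays of NDUFA3, NDUFV3, NDUFA11, NDUFA7, ATP5MC1 and ATP5PD lie below every control array and those of NDUFS4 and COX7A2L above every control array. NDUFA7 was added after its values were seen.

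Among the 6 nuclear core subunits of complex I measured here, which belong to the peripheral arm, 3 fell and none rose. NDUFV1, which binds NADH and the flavin, read 9.32, 9.28 and 9.32 after glucosamine, against 9.51, 9.61 and 9.55 in control, a difference of -0.25 ± 0.05 (adjusted p = 0.00934). NDUFV2, its iron-sulfur partner, read 9.34, 9.03 and 9.04 against 9.59, 9.43 and 9.56 in control, and its difference was -0.39 ± 0.09 (adjusted p = 0.0171). In both, the highest glucosamine array stayed below the lowest control array. NDUFS8, an iron-sulfur subunit near the quinone site, read 8.85, 8.92 and 8.98 after glucosamine, against 9.18, 9.09 and 9.24 in control, and its difference was -0.25 ± 0.06 (adjusted p = 0.0202). The NDUFV2 call was lost without control replicate 1 or 3 or glucosamine replicate 2 or 3 (adjusted p = 0.0589 to 0.0662), and the NDUFS8 call without control replicate 1 or 3 or glucosamine replicate 2 (0.0534 to 0.0771). The remaining core subunits did not pass and had differences above 0. NDUFS1, the largest iron-sulfur subunit, read 8.71, 8.89 and 8.88 after glucosamine and 8.69, 8.68 and 8.74 in control (0.13, adjusted p = 0.209). NDUFS3 read 9.66, 9.89 and 9.73 after glucosamine and 9.66, 9.73 and 9.69 in control (0.06, adjusted p = 0.566). For NDUFS7, which carries the last iron-sulfur cluster before the quinone, the arrays read 8.70, 8.44 and 8.49 after glucosamine and 8.49, 8.43 and 8.28 in control (0.14, adjusted p = 0.291). Falls and values above 0 thus stood side by side within the same peripheral arm.

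Accessory subunits of complex I carried the other falls. Of 11 NDUFA genes 3 fell (NDUFA3, NDUFA11 and NDUFA7) and none rose, and of 11 NDUFB genes, which belong to the membrane arm, 5 fell (NDUFB1, NDUFB3, NDUFB11, NDUFB5 and NDUFB8) and none rose. The NDUFB falls were between -0.38 for NDUFB1 (adjusted p = 0.00441) and -0.19 for NDUFB8 (adjusted p = 0.0225). Without control replicate 2 or 3 or glucosamine replicate 3, NDUFB5 (adjusted p = 0.0673 to 0.0952) and NDUFB8 (0.0688 to 0.0849) did not pass, and NDUFB8 did not without glucosamine replicate 2 either (0.069). Besides NDUFV3 and NDUFS4, none of the 5 accessory genes named NDUFC, NDUFS or NDUFV passed. The 20 complex I genes that did not pass included NDUFA12, at 0.05 with a 95% confidence interval of -0.06 to 0.16, and NDUFB10, at -0.26 with an interval of -0.46 to -0.05. With the replicate number as a block NDUFB10, NDUFB4 and NDUFA2 passed as lower (adjusted p = 0.0135, 0.0436 and 0.0438).

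Complex II, the succinate dehydrogenase of the citric acid cycle, moved in opposite directions. SDHA, the flavin subunit that oxidises succinate, read 9.43, 9.53 and 9.48 after glucosamine, against 9.32, 9.32 and 9.31 in control. The groups did not overlap and SDHA rose by 0.17 ± 0.05 (adjusted p = 0.0461), which with the replicate block became adjusted p = 0.0573 and was lost without any 1 array other than glucosamine replicate 1 (adjusted p = 0.102 to 0.13). SDHC, a membrane anchor, read 10.67, 10.67 and 10.71 after glucosamine, against 11.10, 11.04 and 11.08 in control, and fell by 0.39 with an SE of 0.05 (adjusted p = 0.000891). SDHD, the partner anchor, read 10.03, 9.88 and 9.95 after glucosamine and 9.96, 9.72 and 9.84 in control, with overlapping groups (0.11, adjusted p = 0.325).

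The probe set of SDHC changes its call. The one taken as brightest has an identifier that stands among those of chromosome 17 probe sets, whereas SDHC lies on chromosome 1. The other, whose identifier stands among chromosome 1 probe sets, gave -0.20 (adjusted p = 0.149). For SDHD, on chromosome 11, the probe set among those of its own chromosome gave 0.17 and passed (adjusted p = 0.0461). For NDUFV2, on chromosome 18, it gave -0.45 (adjusted p = 0.0105), so that call did not depend on the choice. Whether the brighter probe sets read related copies of these genes was not tested.

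Complex III had 1 rise and 1 fall among 8 genes. CYC1, the cytochrome c1 subunit that hands electrons to cytochrome c, read 10.35, 10.24 and 10.25 after glucosamine, against 10.13, 10.09 and 10.09 in control, and rose by 0.18 ± 0.05 (adjusted p = 0.0417). UQCR11, a small accessory subunit, read 8.23, 8.22 and 8.24 against 8.71, 8.48 and 8.46 in control, and fell by 0.32 with an SE of 0.07 (adjusted p = 0.0143). Neither gene's groups overlapped. The CYC1 call was lost without any 1 of the 6 arrays (adjusted p = 0.0623 to 0.127). The other 6 genes lay between -0.17 for UQCRQ (adjusted p = 0.054) and 0.14 for UQCRC1 (adjusted p = 0.0823) and did not pass.

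In complex IV, the terminal oxidase, 2 genes rose and 1 fell out of 17, and the median difference was 0.02. COX7A2L, also called SCAFI, promotes the association of complexes III and IV into supercomplexes. It read 10.02, 10.09 and 10.07 after glucosamine, against 9.31, 9.45 and 9.32 in control. The arrays were far apart for this set of genes, with a difference of 0.70 ± 0.06 (adjusted p = 0.000146), the largest rise of the 75. COX7C, a small structural subunit, read 9.08, 9.15 and 9.16 against 8.86, 8.92 and 8.997 in control, a rise of 0.21 ± 0.06 (adjusted p = 0.0318). COX5B, a zinc-binding subunit, read 11.04, 11.00 and 11.00 after glucosamine, against 11.25, 11.25 and 11.17 in control, and fell by 0.21 with an SE of 0.05 (adjusted p = 0.0189). Both were small steps between groups that did not overlap. Without control replicate 1 or 2 or glucosamine replicate 2 or 3, neither COX7C (adjusted p = 0.0885 to 0.105) nor COX5B (0.0567 to 0.0767) passed.

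The 2 conserved early-assembly subunits of complex IV did not pass. COX4I1 read 8.42, 8.48 and 8.37 after glucosamine and 8.46, 8.38 and 8.44 in control (-0.01, 95% confidence interval -0.13 to 0.12). COX5A read 11.16, 11.13 and 11.16 after glucosamine and 11.18, 11.23 and 11.25 in control (-0.07, interval -0.18 to 0.04). These intervals leave room only for differences smaller than those of NDUFA3 or COX7A2L.

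Several complex IV subunits have a widely expressed form and a form restricted to muscle, lung or testis, and none of the 6 restricted forms passed. The hypoxia- and lung-associated COX4I2 read 5.25, 5.26 and 5.30 after glucosamine and 5.32, 5.44 and 5.16 in control, and the muscle form COX6A2 6.04, 6.05 and 6.07 after glucosamine and 5.81, 5.96 and 5.87 in control (0.17, adjusted p = 0.0566). The muscle form COX7A1 read 4.66, 4.58 and 4.65 after glucosamine and 4.50, 4.48 and 4.55 in control (0.12, adjusted p = 0.141). For these low signals the background is of unknown size. The testis-associated COX6B2 read between 4.12 and 4.33 after glucosamine and between 4.05 and 4.19 in control, COX8C between 3.81 and 4.12 after glucosamine and between 3.96 and 4.02 in control, and COX7B2 between 5.16 and 5.46 after glucosamine and between 5.08 and 5.38 in control. Their differences were 0.10, -0.01 and 0.11, with overlapping groups in each.

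Of the matching wide forms, COX6A1 read 12.01, 12.01 and 12.02 after glucosamine and 12.03, 11.94 and 11.9997 in control (0.02, adjusted p = 0.786). COX7A2 read 9.46, 9.27 and 9.28 after glucosamine and 9.29, 9.30 and 9.18 in control (0.08, adjusted p = 0.469), and COX8A had a difference of -0.01 (adjusted p = 0.929). COX7B read 8.39, 8.22 and 8.37 after glucosamine and 8.56, 8.33 and 8.61 in control, with overlapping groups (-0.17, adjusted p = 0.184). COX6B1, which faces the intermembrane space, read 10.18, 9.99 and 10.36 after glucosamine, against 10.41, 10.44 and 10.59 in control. All its glucosamine arrays were below the control arrays, and its difference of -0.31 missed the threshold (adjusted p = 0.0547) and passed with the replicate block (adjusted p = 0.00971). The subunits once named NDUFA4 and NDUFA4L2 are listed as COXFA4 and COXFA4L2 and lie outside the rule. COXFA4 fell by 0.28 (adjusted p = 0.02, and 0.0647 to 0.0805 without control or glucosamine replicate 2 or 3 and 0.09 with all 8 arrays) and COXFA4L2 had -0.04 (adjusted p = 0.768).

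The ATP synthase had 6 falls and no rise among 14 genes, with a median difference of -0.19, and 13 of its 14 differences were below 0. ATP5MC1 is 1 of 3 genes that encode the same mature c subunit of the proton-driven ring, each with another import sequence. It read 10.65, 10.61 and 10.78 after glucosamine, against 11.19, 11.21 and 11.32 in control, and fell by 0.56 with an SE of 0.06 (adjusted p = 0.0006). The other c-ring genes did not pass. ATP5MC2 read 8.61, 8.57 and 8.61 after glucosamine and 8.62, 8.60 and 8.70 in control (-0.04, 95% confidence interval -0.16 to 0.08), and ATP5MC3 read 5.81, 5.79 and 5.90 after glucosamine and 5.90, 6.08 and 6.03 in control (-0.17, adjusted p = 0.0986). The difference between the 3 genes' responses was not tested. The interval of ATP5MC1 ran from -0.71 to -0.41, and that of ATP5MC3 from -0.32 to -0.02.

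The peripheral stalk, which holds the catalytic head still, had 3 falls among 4 genes. ATP5PD, its d subunit, read 9.26, 9.45 and 9.50 after glucosamine, against 9.87, 9.80 and 9.94 in control, and fell by 0.47 with an SE of 0.08 (adjusted p = 0.00281). ATP5PO, the oligomycin sensitivity-conferring subunit, read 8.79, 8.71 and 8.71 against 9.017, 8.999 and 9.005 in control, a difference of -0.27 ± 0.05 (adjusted p = 0.00539). ATP5PB, the b subunit, fell by 0.24 (adjusted p = 0.0259), and ATP5PF had -0.03 (adjusted p = 0.809). The ATP5PB call was lost without control or glucosamine replicate 2 or 3 (adjusted p = 0.0676 to 0.101). ATP5MF, the membrane subunit f, read 9.88, 9.86 and 9.98 after glucosamine, against 10.24, 10.21 and 10.22 in control, and fell by 0.32 with an SE of 0.05 (adjusted p = 0.00345). Its 2 dimmer probe sets gave -0.25 and -0.20 (adjusted p = 0.0283 and 0.0185), but their identifiers stand among those of chromosomes 12 and 6, while ATP5MF lies on chromosome 7. What they read was not tested.

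In the catalytic head neither main subunit passed. ATP5F1B, the beta subunit that forms ATP, read 12.02, 12.03 and 12.04 after glucosamine and 12.06, 12.01 and 12.03 in control (-0.01, 95% confidence interval -0.12 to 0.10). ATP5F1A, the alpha subunit, read 10.03, 9.99 and 10.02 after glucosamine, against 9.88, 9.85 and 9.93 in control, all above the control arrays, and its difference of 0.13 did not pass (adjusted p = 0.0973). Of the central stalk genes, ATP5F1D fell by 0.24 (adjusted p = 0.0444), ATP5F1C had -0.22 (adjusted p = 0.0529, and 0.0324 with the replicate block) and ATP5F1E had -0.10 (adjusted p = 0.222). The ATP5F1D call was lost without any 1 array other than glucosamine replicate 3 (adjusted p = 0.0742 to 0.15).

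Across all 49 genes that did not pass, differences lay between -0.31 and 0.17, and 29 were below 0.

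Genes that work beside the subunits are read against the 13.9% of all probe sets called lower and 11.9% called higher. Assembly factors, which insert cofactors and join subunits without remaining in the finished complex, were taken from a list of 55 of which 48 were measured, and 24 of the 48 fell and 7 rose, with a median of -0.18. The list is broader than that definition and also holds ATP5IF1, an inhibitor, so these counts include it. With the spread shared over all 8 arrays, 11 fell and 2 rose, where 2177 probe sets were called in place of 4956. FOXRED1, a complex I assembly factor, read 6.96, 6.88 and 6.95 after glucosamine, against 8.20, 8.03 and 8.01 in control, a difference of -1.15 ± 0.07 (adjusted p = 3.57e-05). NDUFAF3 and NDUFAF1, which act in the same pathway, had -0.95 (adjusted p = 4.09e-05) and -0.73 (adjusted p = 8.93e-05, and 0.0673 with the spread shared over all 8 arrays). Altogether 9 of the 17 complex I factors fell and 3 rose.

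Among 6 complex III factors 4 fell and 1 rose, including LYRM7, a chaperone of the Rieske iron-sulfur protein, at -1.04 (adjusted p = 0.00037), BCS1L, which places that protein in the membrane, at -0.42 (adjusted p = 0.00159, and 0.249 with all 8 arrays), and UQCC2, a cytochrome b assembly factor, at -0.38 (adjusted p = 0.00517). Of 18 complex IV factors 8 fell and 2 rose. COX18, a membrane insertase for COX2, had -0.69 (adjusted p = 0.000146) and COA3 had -0.56 (adjusted p = 0.000439), while COA6, a copper-handling factor, rose by 0.54 (adjusted p = 0.00133). For the ATP synthase 2 of the 4 listed genes fell. ATPAF2, a chaperone of the alpha subunit, had -0.78 (adjusted p = 0.000435). ATP5IF1, the inhibitor of ATP hydrolysis rather than an assembly factor, had -0.38 (adjusted p = 0.00187, and 0.145 with all 8 arrays). Complex II had SDHAF2, which helps attach flavin to SDHA, at 0.21 (adjusted p = 0.0268) and SDHAF4 at -0.28 (adjusted p = 0.0181) among 3 factors. SDHAF2 did not pass without control replicate 1, 2 or 3 or glucosamine replicate 1 or 2 (adjusted p = 0.0524 to 0.0966), nor SDHAF4 without control replicate 1 or glucosamine replicate 2 or 3 (0.0543 to 0.0689). With all 8 arrays neither passed (0.0991 and 0.194).

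In the list of electron carriers and coenzyme Q synthesis, 8 of 19 genes fell and 5 rose, and with all 8 arrays 3 fell and 4 rose. COQ2, which attaches the isoprenoid tail of coenzyme Q, read 6.52, 6.48 and 6.43 after glucosamine, against 7.51, 7.50 and 7.52 in control (-1.04, adjusted p = 1.96e-05). ETFB, of the flavoprotein that brings electrons from fatty acid oxidation, had -0.86 (adjusted p = 0.000104), and DHODH, a pyrimidine synthesis enzyme that reduces coenzyme Q, had -0.81 (adjusted p = 0.000187, and 0.174 with all 8 arrays). Of 19 regulators of respiratory and mitochondrial genes 8 fell and none rose (4 and none with all 8 arrays), led by MTERF3 at -0.48 (adjusted p = 0.00112), MTERF2 at -0.91 (adjusted p = 0.00143), both mitochondrial DNA-binding factors, and the coactivator PPARGC1B at -0.36 (adjusted p = 0.00489). The 3 further subunits with other symbols, NDUFAB1, ATP5MJ and ATP5MK, did not pass.

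Set against KMH2 control, Ramos cells had 31 of the 75 subunit genes higher and 13 lower, or 41.3% and 17.3%. Across all probe sets 22.7% were called higher and 21.2% lower in Ramos, or 43.8% in either direction. Without the probe sets below the median mean signal, 28 of 68 subunit genes were higher and 12 lower. That filter left 6136 probe sets called, from those at or above the median alone, against 8408 of all 19181. The share called was again much higher among bright probe sets, so the shares over all are a low yardstick. An excess of called subunit genes over them is not read as particular to these genes. With array weights the counts of subunit genes were 23 higher and 5 lower (SDHC, NDUFB6, NDUFB9, NDUFA13 and UQCRH), with 6361 probe sets called. Without KMH2 control replicate 1 the subunit counts were 27 and 8, with 7321 probe sets called. The median of the 75 genes was 0.15, beside 0.06 for all probe sets. All arrays of Ramos lay above all control arrays in 35 genes and below them in 18, where 37.8% and 26.3% of all probe sets were so separated, or 64.1% in either direction. Differences were wider than after glucosamine: 18 genes reached 1.5-fold and 7 reached 2-fold. This comparison uses the same 3 control arrays as the glucosamine comparison, so the values of both are given side by side without a measure of their likeness.

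**Figure D3:**
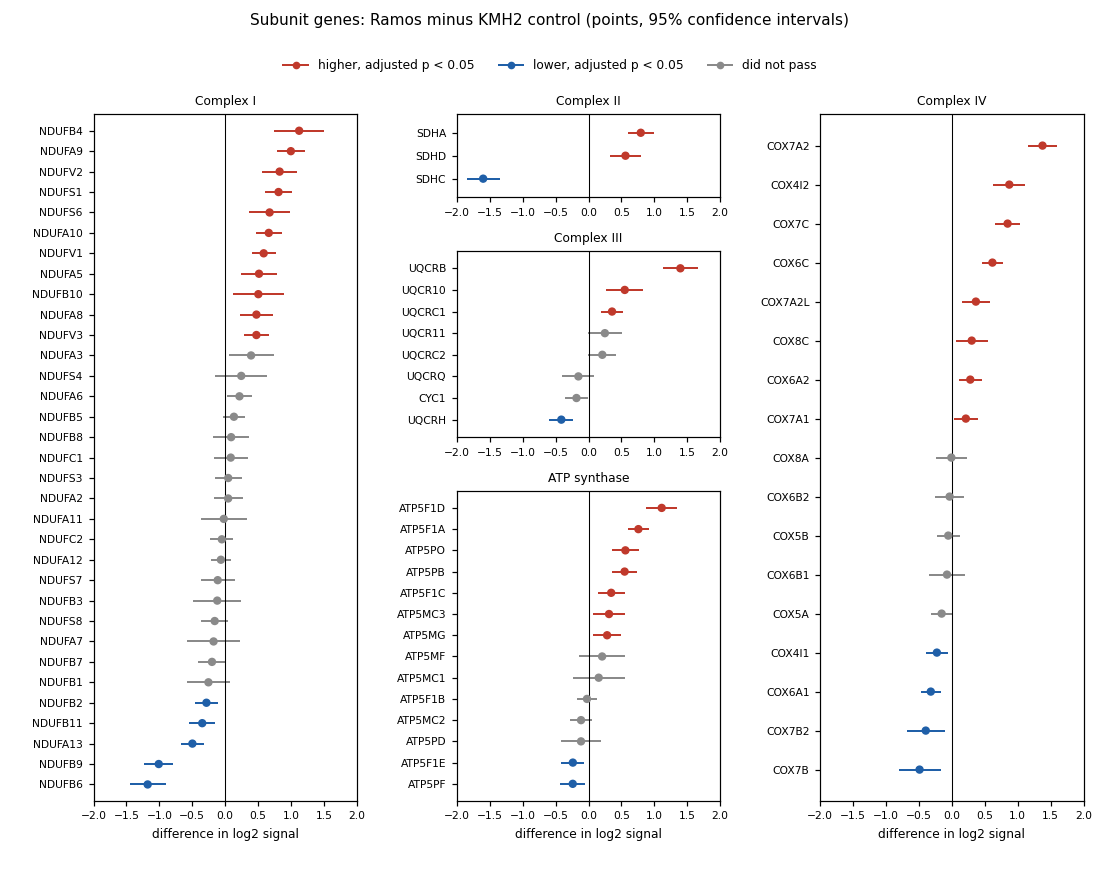
Difference in log2 signal, Ramos minus KMH2 control (horizontal axis), for the 75 subunit genes by complex, from 2 Ramos and 3 control arrays. Points are limma estimates and bars 95% confidence intervals, with red for the 31 genes called higher, blue for the 13 called lower and grey for the 31 that did not pass. Both colours occur in every complex, and SDHC has the lowest point at -1.60.

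Complex I had 11 genes higher and 5 lower in Ramos. NDUFB4, a membrane arm subunit, read 9.80 and 9.21 in Ramos, against 8.44, 8.36 and 8.34 in control (1.12 ± 0.16 SE, adjusted p = 0.000496). NDUFA9, an accessory subunit at the junction of the arms, read 10.28 and 10.09 against 9.17, 9.23 and 9.16 in control (1.00, adjusted p = 2.25e-05). Other membrane arm subunits were lower. NDUFB6 read 8.86 and 8.49 in Ramos, against 9.76, 9.86 and 9.94 in control (-1.18, adjusted p = 5.17e-05), and NDUFB9 read 9.51 and 9.56 against 10.61, 10.49 and 10.53 in control (-1.01, adjusted p = 3.12e-05). NDUFA13, also known as GRIM-19, read 7.84 and 7.74 against 8.30, 8.32 and 8.23 in control (-0.50, adjusted p = 0.000417). No Ramos array overlapped the control arrays in any of these 5 genes. NDUFB10 was higher by 0.50 (adjusted p = 0.0334), a call lost without any 1 control array or Ramos replicate 1 (0.0505 to 0.167). With array weights NDUFB10 (adjusted p = 0.0538), NDUFB11 (0.0554) and NDUFB2 (0.117) did not pass.

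Of the complex I core subunits NDUFV2 was higher at 10.32 and 10.38 in Ramos, against 9.59, 9.43 and 9.56 in control (0.83, adjusted p = 0.000335). NDUFS1 was higher at 9.58 and 9.45, against 8.69, 8.68 and 8.74 in control (0.81, adjusted p = 6.87e-05), and NDUFV1 at 10.22 and 10.05, against 9.51, 9.61 and 9.55 in control (0.59, adjusted p = 0.000258). NDUFS3, NDUFS7 and NDUFS8 did not pass, with differences of 0.05, -0.11 and -0.16. NDUFS4, the complex I gene that rose with glucosamine, read 7.92 and 8.54 in Ramos against 8.01, 7.84 and 8.11 in control and did not pass (0.24, adjusted p = 0.274). Its dimmer probe set passed as higher there (0.26, adjusted p = 0.0313).

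Complex II diverged between its subunits in Ramos as well. SDHA read 9.99 and 10.22 in Ramos, against 9.32, 9.32 and 9.31 in control (0.79, adjusted p = 7.16e-05), and SDHD read 10.31 and 10.49 against 9.96, 9.72 and 9.84 in control (0.56, adjusted p = 0.00148). SDHC read 9.66 and 9.29 in Ramos, against 11.10, 11.04 and 11.08 in control. That difference of -1.60 ± 0.10, or 3.03-fold, was the widest of the 75 genes (adjusted p = 4.55e-06). With the probe sets that stand among those of the genes' own chromosomes SDHC had -1.83 (adjusted p = 7e-05) and SDHD 0.63 (adjusted p = 0.00107), so both calls held.

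In complex III, UQCRB, which takes part in quinone binding, read 7.24 and 7.53 in Ramos, against 5.97, 6.07 and 5.92 in control (1.40 ± 0.11 SE, adjusted p = 1.58e-05). UQCR10 read 9.90 and 9.48 against 9.17, 9.08 and 9.17 in control (0.55, adjusted p = 0.00474), and the core subunit UQCRC1 read 8.52 and 8.44 against 8.14, 8.11 and 8.11 in control (0.36, adjusted p = 0.00187). UQCRH, the acidic hinge subunit, was lower at 6.50 and 6.45, against 6.80, 6.89 and 6.98 in control (-0.41, adjusted p = 0.00183). CYC1 had -0.18 and did not pass (adjusted p = 0.0572).

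Complex IV had 8 genes higher and 4 lower, and of its isoform pairs COX4I1 with COX4I2 and COX6A1 with COX6A2 were called in opposite directions. The 6 restricted forms, whose low signals hold background of unknown size, made up 4 of the higher and 1 of the lower genes. The 10 broadly expressed subunits had 3 higher and 3 lower. COX7A2 read 10.72 and 10.55 in Ramos, against 9.29, 9.30 and 9.18 in control (1.38, adjusted p = 4.98e-06), and COX7C read 9.69 and 9.85 against 8.86, 8.92 and 8.997 in control (0.85, adjusted p = 3.81e-05). COX4I2 was higher at 6.07 and 6.28, against 5.32, 5.44 and 5.16 in control (0.87, adjusted p = 0.000143), whereas the wide form COX4I1 was lower at 8.19 and 8.21, against 8.46, 8.38 and 8.44 (-0.23, adjusted p = 0.0204). In the same way COX6A2 was higher (0.28, adjusted p = 0.011) and COX6A1 lower at 11.65 and 11.68, against 12.03, 11.94 and 11.9997 in control (-0.32, adjusted p = 0.00276). Both COX7B, at 8.21 and 7.81 against 8.56, 8.33 and 8.61 in control (-0.49, adjusted p = 0.0165), and COX7B2, at 4.78 and 4.82 against 5.38, 5.11 and 5.08 (-0.40, adjusted p = 0.0249), were lower. COX7A1 and COX8C were higher by 0.21 (adjusted p = 0.0435) and 0.30 (adjusted p = 0.0363), and COX5A, COX6B1, COX6B2, COX8A and COX5B did not pass. With array weights COX4I1 (adjusted p = 0.206), COX6A1 (0.0508), COX6A2 (0.14), COX7A1 (0.198), COX7A2L (0.068), COX7B (0.111), COX7B2 (0.205) and COX8C (0.213) did not pass. Some calls also hung on single arrays: COX7A1 was lost without any 1 control array or Ramos replicate 1 (adjusted p = 0.0714 to 0.186), and COX8C without any 1 control array or Ramos replicate 2 (0.0698 to 0.146). COX7B was lost without control replicate 1 or 3 or Ramos replicate 2 (0.0529 to 0.08), COX4I1 without control replicate 1 or 3 (0.0629 and 0.0618) and COX7B2 without control or Ramos replicate 1 (0.0637 and 0.0636). COXFA4L2 and COXFA4, outside the rule, were higher by 0.92 (adjusted p = 0.000256) and 0.63 (adjusted p = 0.00119).

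The ATP synthase had 7 genes higher and 2 lower in Ramos. ATP5F1D, the delta subunit of the central stalk, read 10.50 and 10.69, against 9.45, 9.55 and 9.45 in control (1.11, adjusted p = 2.5e-05). ATP5F1A read 10.66 and 10.63, against 9.88, 9.85 and 9.93 in control (0.76, adjusted p = 1.68e-05), and ATP5PO read 9.69 and 9.44, against 9.017, 8.999 and 9.005 in control (0.56, adjusted p = 0.00069). ATP5F1B, the catalytic partner of ATP5F1A, read 12.03 and 11.9997 in Ramos and 12.06, 12.01 and 12.03 in control (-0.02, 95% confidence interval -0.16 to 0.11). The epsilon subunit ATP5F1E, at 8.57 and 8.42 against 8.74, 8.69 and 8.76 in control, and the stalk subunit ATP5PF, at 7.87 and 7.92 against 8.12, 8.15 and 8.13, were lower by small amounts (both -0.24, adjusted p = 0.0224 and 0.0347). Of the c-ring genes ATP5MC3 passed (0.31, adjusted p = 0.0344), and ATP5MC1 (0.15) and ATP5MC2 (-0.11) did not. The ATP5PF call was lost without any 1 control array or Ramos replicate 1 (adjusted p = 0.071 to 0.0949), the ATP5F1E call without control replicate 1 or 3 or Ramos replicate 2 (0.0618 to 0.0936) and the ATP5MC3 call without control replicate 1 or 3 or Ramos replicate 1 (0.0711 to 0.169). ATP5MG, the g subunit, was higher by 0.28 (adjusted p = 0.0266), but not without control replicate 1 or 2 or Ramos replicate 1 (0.0645 to 0.119). With array weights ATP5F1C (adjusted p = 0.121), ATP5F1E (0.149), ATP5MC3 (0.183), ATP5MG (0.162) and ATP5PF (0.168) did not pass.

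Side by side, of the 21 genes that fell with glucosamine 6 were higher, 2 lower and 13 not called in Ramos, and of the 5 that rose 3 were higher and 2 not called. This split was not counted over all probe sets, and both comparisons share the control arrays. Nothing is read from these counts. The assembly factors had 19 of 48 higher and 4 lower in Ramos, with a median of 0.19, beside 22.7% and 21.2% of all probe sets. With array weights they had 13 higher and 4 lower, where 6361 probe sets were called in place of 8408. NDUFAF4, NDUFAF5 and NDUFAF6 of complex I were higher by 1.24, 1.03 and 1.18 (adjusted p = 3.09e-06, 7.39e-06 and 5.18e-05). UQCC1, UQCC2 and TTC19 of complex III were higher by 0.71, 0.42 and 0.32 (adjusted p = 6.97e-05, 0.00337 and 0.02). In complex IV the copper chaperone COX17 was higher by 1.10 (adjusted p = 8.51e-06), while COX16 had -1.38 (adjusted p = 3.9e-06) and COX14 -0.79 (adjusted p = 9.46e-05). SDHAF4 was higher by 1.11 (adjusted p = 0.000232) and SDHAF2 had -0.71 (adjusted p = 0.000132), and ATPAF2 and TMEM70 were higher by 0.71 and 0.35 (adjusted p = 0.00423 and 0.0352). TTC19 did not pass without control replicate 1 or 2 or Ramos replicate 1 (adjusted p = 0.0644 to 0.0686), nor TMEM70 without any 1 control array or Ramos replicate 2 (0.0538 to 0.104), nor either with array weights (0.138 and 0.176).

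Electron carriers and coenzyme Q genes had 8 higher and 6 lower of 19 in Ramos, with PDSS2, of coenzyme Q tail synthesis, at 2.28 (adjusted p = 1.31e-07), COQ2 at 0.90 (adjusted p = 8.51e-06) and cytochrome c itself, CYCS, at 0.94 (adjusted p = 6.06e-05). Of the 19 regulators 9 were higher and 4 lower. NRF1 was higher at 7.51 and 7.82 in Ramos, against 6.73, 6.70 and 6.55 in control (1.01, adjusted p = 0.000148), MTERF2 had -2.50 (adjusted p = 2.68e-06) and SSBP1, which coats single-stranded mitochondrial DNA, had -0.96 (adjusted p = 0.000175). After glucosamine NRF1 read 6.87, 6.87 and 6.66, which overlapped the control arrays and did not pass (0.14, adjusted p = 0.25). ATP5MJ, outside the rule, was lower by 0.27 in Ramos (adjusted p = 0.0133, and 0.055 without Ramos replicate 2 and 0.0851 with array weights).

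The 2 Ramos arrays differed from each other more than the KMH2 replicates did. Replicate 1 was above replicate 2 in 53 of the 75 genes (70.7%), with a median gap of 0.13, against 51.8% and 0.01 over all probe sets. It was above in 18 of the 21 genes that fell with glucosamine in KMH2 (85.7%, median gap 0.29) and in none of the 5 that rose. NDUFS4, for instance, read 7.92 on replicate 1 and 8.54 on replicate 2, and ATP5MC1 read 11.72 and 11.07. Among all probe sets called lower in KMH2 the share was 78.1%, and among all called higher it was 25%, so the split between arrays was not limited to the subunit genes. No test was made of 1 array against 1 array, and no treatment was read from these values.

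**Figure D4:**
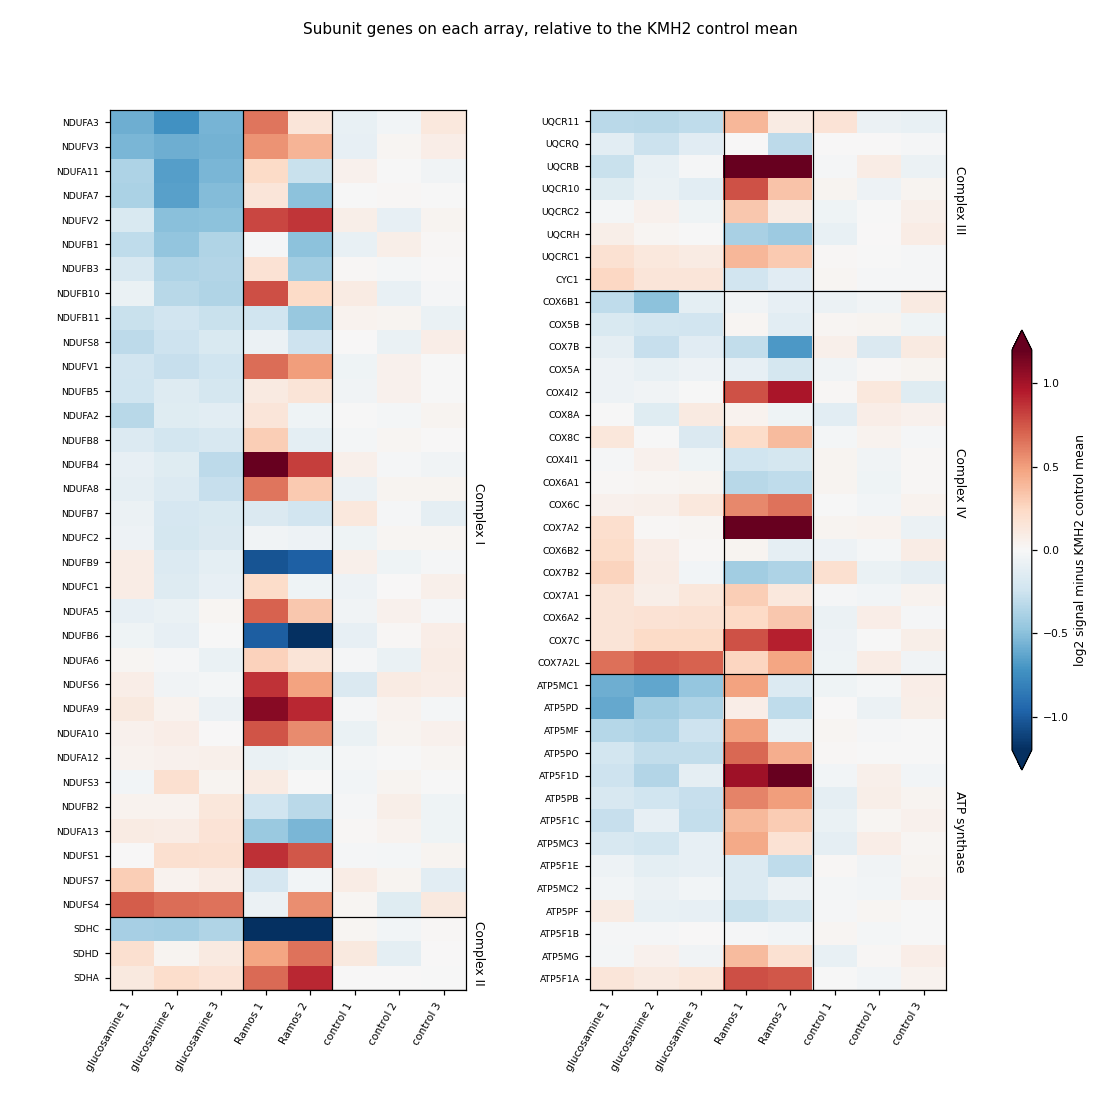
Log2 signal minus the mean of the KMH2 control arrays (colour, from blue below to red above, saturating at 1.2) for each of the 75 subunit genes, by complex, on every array in the order KMH2 glucosamine, Ramos and KMH2 control. The Ramos columns hold the deepest colours, such as SDHC and UQCRB, and Ramos replicates 1 and 2 differ in genes such as NDUFS4 and ATP5MC1.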

How the data were processed

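Total RNA was hybridised to strips of the Affymetrix HuGene-1_1-st-v1 array as biotin-labelled single samples, per the labels' protocols. The values were deposited by the authors as log2 signals for 33297 probe sets. The log2 unit was read from the values. How signals were summarized and normalized was not stated in the sources used here. No scanner files or detection calls were analysed here, so the background in low signals is unknown and shrinks their differences. Precision is limited by the number of arrays.

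Names came from the platform's annotation, which can be old, and 19181 probe sets with exactly 1 symbol were tested. Another 2055 had several symbols and 12061 were unlisted. Of the tested, 19143 matched the RefSeq table of GRCh38.p14 by Entrez identifier and 0 symbols changed. A gene with several probe sets was represented by the one with the highest mean over the 8 arrays. No filter on dim signals was applied. Of the 75 subunit genes, 68 lay at or above the median mean signal of tested probe sets (6.24).

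limma 3.58.1 (lmFit and eBayes, R 4.3.3) was fitted on all tested probe sets, two-sided, with Benjamini-Hochberg adjustment over all of them and a threshold of 0.05. The glucosamine comparison used the 6 KMH2 arrays, and the Ramos comparison all 8 arrays in 3 groups. In figures and text, intervals are limma's 95% intervals, not adjusted for the number of genes. The procedure was tested on simulated data with a spread taken from the KMH2 arrays. Of 100 changes of 0.5 it recovered 85 in the glucosamine and 63 in the Ramos comparison, and of 100 changes of 1 it recovered 100 and 96. It made 14 and 11 false calls. Ramos replicates were more spread than the simulated ones, so the simulation does not match that comparison. Deviations from the group means of same-numbered KMH2 glucosamine and control replicates correlated at 0.457, 0.234 and 0.231, against -0.369 to 0.252 for different numbers. Only replicate 1 stood apart, because glucosamine replicate 3 and control replicate 2 reached 0.252. Whether the numbers pair the samples is therefore not settled. Main values come from fits without the block, and blocked values are printed where they change a call.

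Named genes were, per comparison and complex, the 3 largest rises and 3 largest falls past the threshold with groups that do not overlap, the core subunits, the isoform families and, of each related list, the 3 smallest p-values past the threshold. The subunit genes, related lists and naming rule were chosen with earlier results of these data known. Alternatives were the replicate block, other sets of arrays, quantile normalization, a filter on dim probe sets, all probe sets, other probe sets per gene, an intensity trend, array weights and leaving out arrays.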

Additional observations from a re-analysis of the deposited data

How the results depend on the processing

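No alternative reversed a direction in any call of a subunit gene. After glucosamine, the 5 higher and 21 lower genes became 2 and 8 when all 8 arrays shared 1 estimate of the spread, and the 4956 probe sets called in all became 2177. Array weights gave 8 higher genes, and testing every probe set of the table gave 2. With the replicate block the counts were 4 higher and 26 lower, the SDHA call being lost and those of ATP5F1C, COX6B1, NDUFA2, NDUFB10 and NDUFB4 gained, with no other call of a subunit gene changed. Without any 1 KMH2 array they lay between 2 and 5 higher, 15 and 25 lower, and 3600 and 5304 probe sets. Of these 26 calls 7 held under every alternative run (ATP5MC1, ATP5PD, COX7A2L, NDUFA11, NDUFA3, NDUFV1 and NDUFV3), 7 were lost only with all 8 arrays, among them NDUFA7 (adjusted p = 0.0651) and ATP5PO (0.0551), and 10 were lost without 1 array or another: ATP5F1D, ATP5PB, COX5B, COX7C, CYC1, NDUFB5, NDUFB8, NDUFS8, NDUFV2 and SDHA. SDHC and NDUFS4 were lost with their dimmer probe sets. Of the 49 genes not called 14 passed somewhere.

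In Ramos 28 of 44 calls held throughout. Array weights gave 5 lower genes in place of 13. Leaving out 1 array gave 27 to 37 higher genes, 8 to 18 lower genes, the fewest without KMH2 control replicate 1, and 7035 to 9349 probe sets. Without Ramos replicate 2, ATP5MC1 (0.48) and NDUFA3 (0.64) passed as higher, and without Ramos replicate 1, NDUFS4 (0.56) passed as higher and NDUFA7 (-0.49) as lower. Taking the probe sets among those of the genes' own chromosomes for SDHC, SDHD and NDUFV2, an alternative chosen after seeing the data, gave 6 higher and 20 lower genes after glucosamine. Dim signals hold background of unknown size, and 2 Ramos arrays give a coarse estimate of the spread.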
